A study of Mus musculus with 19 samples.

Results

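Red cell and granulocyte maturation were set side by side as a pair of differences of log2 array signal: late erythroblasts minus megakaryocyte erythroid progenitors (MEP), and granulocytes minus granulocyte macrophage progenitors (GMP). A feature (a gene, an intergenic transcript or a custom noncoding transcript) was included when at least 1 group in each path had its probe well above background on all of its arrays, which held for 20884 of 38391 features. All cells were sorted from the adult bone marrow of C57BL/6 mice aged 8 to 12 weeks, with no treatment or engineered allele named in the labels. Late erythroblasts (3 arrays) were gated as Ter119+ cells with low forward scatter and intermediate CD44, MEP (3 arrays) as lineage-negative cKit+ Sca1- cells low in CD16/32 and in CD34, granulocytes (3 arrays) as Gr1+ cells, and GMP (2 arrays) as lineage-negative cKit+ Sca1- cells high in CD16/32 and in CD34. The other 8 arrays, of stem and multipotent cells (LSK), common myeloid progenitors (CMP) and early erythroblasts, entered the fit only through the shared estimate of the spread. The labels name no animal or pool for any sample, so the spread behind each p-value is that between samples and may be technical.

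In both paths a dividing progenitor becomes a short-lived cell made for 1 task. The erythroblast fills with hemoglobin, condenses and then expels its nucleus, and clears its mitochondria and ribosomes. The granulocyte stores granule proteins, lobes its nucleus, leaves the cell cycle and keeps its nucleus and a glycolytic metabolism. Myc drives ribosome production and growth in hematopoietic progenitors, and members of the Mxd family, which pair with the same partner Max, oppose it.

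The late erythroblast arrays were dim, with 75th percentiles of the processed signal between 50.1 and 57.9, against 403 to 554 on MEP arrays, 361 to 434 on granulocyte arrays and 266 to 320 on GMP arrays. Between 42.9% and 47.1% of probes were well above background on late erythroblast arrays, 50.4% to 61.6% on MEP arrays, 51.3% to 58.2% on granulocyte arrays and 49.5% to 49.8% on GMP arrays. Replicate arrays of 1 group correlated with Pearson's r of 0.977 to 0.982 across the 20884 features in late erythroblasts, 0.985 to 0.993 in MEP, 0.994 to 0.996 in granulocytes and 0.991 in GMP. No slide held both a granulocyte and a GMP array, whereas 2 slides held both late erythroblast and MEP arrays. Granulocyte arrays 2 and 3 were the only arrays on their slide. When slide is fitted as a block, granulocyte array 1 alone thus informs the granulocytic difference. All levels below are log2 signal minus the 75th percentile of the same array, so a change is relative to the other RNA on it. Fewer cells that carry a transcript and less of it per cell cannot be told apart in these bulk samples.

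More features fell along both paths than rose along both. Of the 20884 features, 6181 were called lower in both mature cells (29.6%), 2896 higher in both (13.9%), 1349 higher in late erythroblasts and lower in granulocytes (6.46%), and 1483 lower in late erythroblasts and higher in granulocytes (7.1%). Calls were made with limma at a Benjamini-Hochberg adjusted p of 0.05. Over all features tested in each path, 85.1% were called between late erythroblasts and MEP (39.1% higher and 46% lower) and 65.2% between granulocytes and GMP (27.1% higher and 38.1% lower). Among the 11909 features called in both paths, 76.2% moved the same way, a share that was 49.6% with the spike-in scaling described below. Features lower in late erythroblasts were also lower in granulocytes in 61.2% of cases, against 40.8% of all 20884. Those higher in late erythroblasts were also higher in granulocytes in 37.2% of cases, against 24.2% of all. Across features the pair of differences had a Pearson's r of 0.39, given as a description, since features are not independent and share the arrays. The arrays of the mature cell and of its progenitor did not overlap in either path for 15205 features (72.8%). These include every gene whose values are given array by array below.

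Some features passed the inclusion rule only through the group in which they were high, so the same classes were counted over the 15083 features detected well above background by all arrays of the 4 groups. There, 4355 were lower in both (28.9%), 2378 higher in both (15.8%), 1233 higher in late erythroblasts and lower in granulocytes (8.17%), and 921 lower in late erythroblasts and higher in granulocytes (6.11%). At least 2-fold in both paths and called, 4255 of the 20884 were lower in both, 1790 higher in both, 598 higher in late erythroblasts and lower in granulocytes, and 852 the reverse. For features with several detected probes, all probes shared the sign of the reported probe in both paths for 83.6% of those lower in both but only 67.5% of those higher in both. The share was 62.3% for those higher in late erythroblasts and lower in granulocytes, and 76.4% for the reverse.

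**Figure D1:**
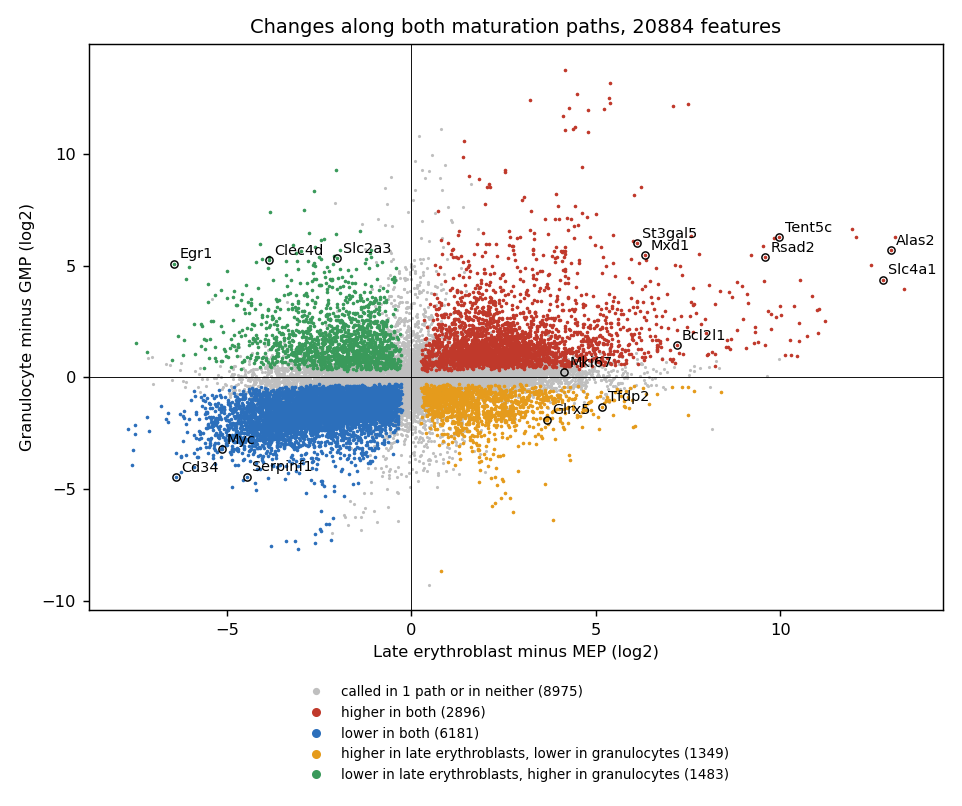
Each point is 1 of 20884 features, with the log2 difference late erythroblast minus MEP on the x axis and granulocyte minus GMP on the y axis, coloured by the direction called in both paths. The lower left holds 6181 features and the upper right 2896, and the other corners hold 1349 and 1483; named genes are circled.

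The balance between rising and falling features depended on the scaling. Taken relative to the median feature of each path (medians of -0.42 in the erythroid and -0.29 in the granulocytic path), 4025 features were higher in both and 4853 lower in both. With the 75th percentile taken over probes detected on all arrays, 3886 were higher in both and 5081 lower in both. Scaling to the spike-in controls moved the median feature to -4.85 in the erythroid path and 0.05 in the granulocytic path. Then 164 features were higher in both and 2044 lower in both. Among features called in both paths, 2208 then moved the same way and 2241 in opposite ways, a same-way share of 49.6%, against 76.2%. Of the 6181 features first called lower in both, 6173 kept both signs with spike-in scaling, but only 1648 kept both calls. Of the 2896 higher in both, 411 kept both signs and 164 both calls. The median spike-in signal was 776, 2046 and 866 on the 3 late erythroblast arrays. It was 443 to 567 on MEP arrays, 480 to 728 on granulocyte arrays and 499 and 543 on GMP arrays. Under that scaling, a gene is higher in late erythroblasts only if it rose by more than the general fall of signal on those arrays. Signal strength moved with the result as well. Among the 5221 features with the lowest mean level over all 19 arrays, 42.6% were higher and 33.1% lower in late erythroblasts, whereas among the 5221 with the highest 31.9% were higher and 58.3% lower. Its part in the result was not tested.

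**Figure D2:**
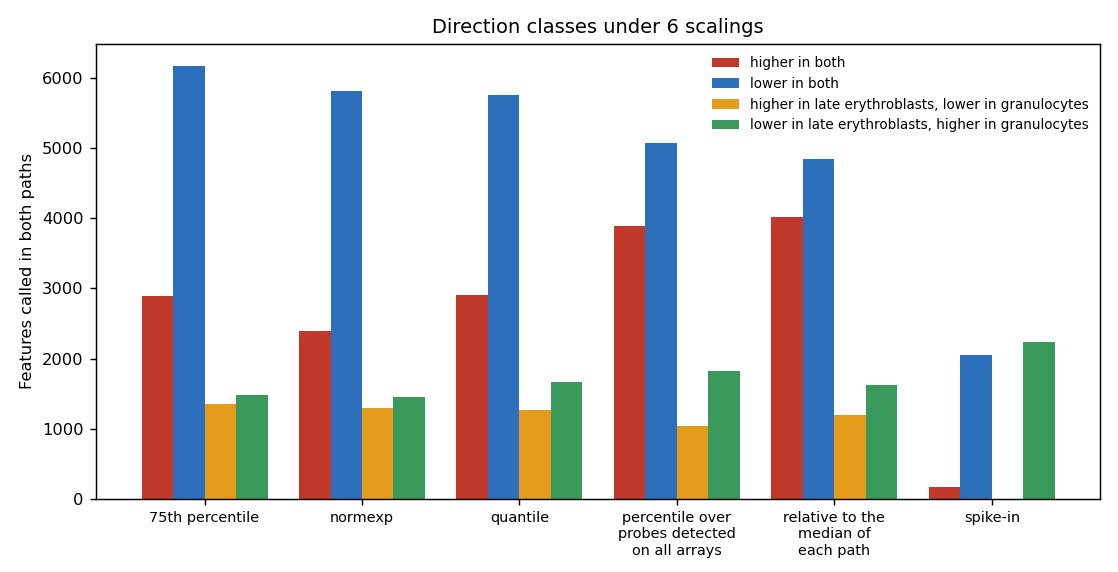
Bars give the number of features in each direction class (y axis) under 6 scalings of the arrays (x axis). Lower in both was the largest class under 5 of them, and under spike-in scaling 164 features were higher in both and 2239 were lower in late erythroblasts and higher in granulocytes.

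Of 37 stem and progenitor genes, 22 were lower in both mature cells, 1 was higher in both, 4 were higher in late erythroblasts and lower in granulocytes, and 3 the reverse; the median differences were -4.43 in the erythroid and -1.49 in the granulocytic path, against -0.42 and -0.29 over all features. Among the 22 detected in all 4 groups, 14 were lower in both, and with spike-in scaling 15 of the 37 were. Over the 12623 included named genes, the background for each gene list, 11.53% were higher in both and 34.51% lower in both. A further 6.29% were higher in late erythroblasts and lower in granulocytes, and 9.35% the reverse. Cd34, the surface sialomucin that marks progenitors and was used in the sort of MEP and GMP, had levels of 0.69, -0.09 and 0.60 in late erythroblasts, against 6.91, 6.32 and 7.11 in MEP. In granulocytes it stood at 2.46, 2.46 and 2.57, against 6.98 and 6.96 in GMP. The Cd34 signal in MEP, which were gated low in CD34, thus lay near that in GMP, which were gated high. Cd34 fell by 6.38 ± 0.32 log2 units in the erythroid path and by 4.47 ± 0.35 in the granulocytic path (limma standard errors, adjusted p = 1.02e-10 and 8.47e-08). No arrays of mature cells and progenitors overlapped. Its second detected probe fell by 1.61 and 4.03, so by that probe the erythroid fall was the smaller. Kit, the stem cell factor receptor, which was also used in the sort, fell by 5.42 ± 0.17 and 2.01 ± 0.19. Myb, a transcription factor needed for progenitor growth, fell by 4.43 ± 0.20 and 1.93 ± 0.23.

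Hoxa7, a homeobox factor of immature cells, was at -1.06, -0.96 and -1.03 in late erythroblasts, against 3.22, 2.91 and 2.996 in MEP, and at -1.10, -1.29 and -1.04 in granulocytes, against 2.49 and 2.43 in GMP. Both mature cells reached a like level from a like start. Its differences were -4.06 ± 0.13 and -3.61 ± 0.14. Muc13, a transmembrane mucin, fell by 6.37 ± 0.26 and 3.37 ± 0.29, and Serpinf1, a secreted serpin, by 4.47 ± 0.26 and 4.45 ± 0.29. Bex6 was well above background on no late erythroblast array, so that it was at least 29.5-fold lower there than in MEP (adjusted p = 3.19e-11), and it fell by 4.26 ± 0.31 log2 units in granulocytes.

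Myc itself had levels of -0.67, -1.81 and -0.51 in late erythroblasts, against 4.87, 4.70 and 2.86 in MEP, and 0.88, 0.87 and 0.76 in granulocytes, against 4.26 and 3.88 in GMP. The third MEP array was lower than the other two but still above every late erythroblast array. Myc fell by 5.14 ± 0.49 and 3.23 ± 0.54 (adjusted p = 1.25e-07 and 0.000117). Ncl, which encodes the nucleolar protein nucleolin, fell by 3.54 ± 0.14 and 2.17 ± 0.16, and Nme1, a nucleoside diphosphate kinase, by 2.62 ± 0.13 and 2.22 ± 0.15. Of the 10 genes listed as the Myc network, 5 were lower in both and none was higher in both. Cad and Odc1, 2 of the 10, were higher in late erythroblasts and lower in granulocytes.

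Of 49 ribosome biogenesis genes, 45 were lower in both mature cells and none was higher in both or moved in opposite ways, with medians of -3.57 in the erythroid and -2.19 in the granulocytic path. With spike-in scaling 34 of them were lower in both. Nat10, an RNA acetyltransferase of the nucleolus, stood at 0.54, 0.69 and 0.75 in late erythroblasts, against 4.49, 4.59 and 4.33 in MEP. It stood at 1.45, 1.43 and 1.498 in granulocytes, against 4.37 and 4.28 in GMP. These levels give 14.0-fold and 7.30-fold decreases (adjusted p = 3.41e-12 and 1.85e-09). Nle1, a factor of large subunit assembly, differed by -4.02 ± 0.49 and -3.09 ± 0.55, and Utp20, a component of the small subunit processome, by -3.61 ± 0.25 and -2.83 ± 0.28. Gpatch4, a nucleolar G-patch protein, differed by -4.55 ± 0.16 and -3.64 ± 0.18.

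Promoters from RefSeq (build GRCm38.p6, 250 bases before to 50 after the annotated start) were matched by symbol to 10164 of the 12623 included named genes, and 1 promoter was taken per gene. In all, 7 short motifs were searched on both strands. They were the E-box bound by dimers of Myc and Max (CACGTG), the motif of the E2F factors (GCGGGAA), the CCAAT box, the core of the cell cycle homology region of mitotic genes (TTTGAA) and the core of the interferon response element. The motifs of the GATA factors (AGATAA) and of the C/EBP factors (TTGCNNAA) completed the search. They occurred in 8.52% and 11.4% of promoters of genes higher in both, against 11.4% and 10.8% of all promoters. Among the included genes they occurred in 7.202% and 8.67%. Against that background the GATA motif was more frequent in genes higher in both, not less. Matches of the interferon core can overlap those of the cell cycle homology core or of the E2F motif, as all contain GAA. CACGTG occurred in 10 of 44 promoters of the ribosome biogenesis list (22.7%), against 7.24% of all 27025 promoters and 10.2% of the included genes. Over the classes it occurred in 11.8% of the genes lower in both and 8.08% of those higher in both. A match is a description of the letters, not of binding. The promoters of Nle1 (chr11:82908346-82908645, minus strand) and Utp20 (chr10:88826765-88827064, minus strand) are shown as the members with this motif whose smaller change was the largest of the list. Capitals mark CACGTG.
Nle1: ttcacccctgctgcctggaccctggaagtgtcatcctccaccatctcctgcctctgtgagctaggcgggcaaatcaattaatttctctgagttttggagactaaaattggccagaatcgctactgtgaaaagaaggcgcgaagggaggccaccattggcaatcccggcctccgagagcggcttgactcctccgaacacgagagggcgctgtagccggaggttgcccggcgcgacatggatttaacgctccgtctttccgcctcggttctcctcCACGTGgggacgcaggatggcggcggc
Utp20: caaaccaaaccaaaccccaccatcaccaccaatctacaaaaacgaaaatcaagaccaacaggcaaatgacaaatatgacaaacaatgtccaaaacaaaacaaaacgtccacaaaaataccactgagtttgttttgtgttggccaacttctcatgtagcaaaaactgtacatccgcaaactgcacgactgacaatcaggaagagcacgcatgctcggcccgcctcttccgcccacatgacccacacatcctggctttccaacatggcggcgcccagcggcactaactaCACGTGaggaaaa
In both sequences the motif lies within the last 50 bases of the window, at or past the annotated start.

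Of 83 cytosolic ribosomal protein genes, 78 were lower in both mature cells and none was higher in either, with medians of -1.61 and -1.24. With spike-in scaling 5 of the 83 were lower in both, as 5 were then called lower in granulocytes. The granulocytic median of the list was then -0.91. Rpl12 stood at 7.00, 6.96 and 6.64 in late erythroblasts, against 9.17, 9.23 and 9.34 in MEP, and at 7.62, 7.67 and 7.76 in granulocytes, against 9.47 and 9.37 in GMP. It remained far above the 75th percentile of the array in both mature cells. Many ribosomal protein genes have near-identical processed pseudogenes, so that their probes may share signal with these. Of 77 mitochondrial ribosomal protein genes, 64 were lower in both (16 with spike-in scaling; medians -2.02 and -1.36), with Mrpl12 at -3.69 ± 0.13 and -2.63 ± 0.15. Of 20 cytosolic aminoacyl-tRNA synthetases, 15 were lower in both (7 with spike-in scaling), such as Eprs (-3.58 ± 0.22 and -2.10 ± 0.24), while 3 were higher in late erythroblasts and lower in granulocytes, among them Aars, the alanyl-tRNA synthetase (2.24 ± 0.19 and -1.17 ± 0.21).

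The median over all included named genes was -0.96 in the erythroid and -0.40 in the granulocytic path. Of 80 genes of the respiratory chain and ATP synthase, 54 were lower in both, 9 were higher in late erythroblasts and lower in granulocytes, and 1 was higher in both (medians -0.83 and -0.95). Lower in both were 35 relative to the median feature of each path and 2 with spike-in scaling. The 9 opposite calls became 1 with normexp and 3 with quantile normalization. Atp5g1, a c subunit of ATP synthase, fell by 2.29 ± 0.13 and 1.95 ± 0.15. Of 37 proteasome subunits, 27 were lower in both (17 relative to the median feature and none with spike-in scaling; medians -0.71 and -0.95), with Psma7 at -2.10 ± 0.11 and -1.58 ± 0.12. Of 45 splicing factors, 34 were lower in both (5 with spike-in scaling; medians -1.48 and -1.15), with Snrpd2 at -2.81 ± 0.14 and -1.87 ± 0.16. Srsf1, a splicing regulator, went the other way in late erythroblasts, at 1.13 ± 0.16, against -1.38 ± 0.18 in granulocytes.

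Of 49 DNA replication genes, 47 were lower in granulocytes than in GMP, 33 were lower in both mature cells and 8 were higher in late erythroblasts and lower in granulocytes. With spike-in scaling 9 were lower in granulocytes, and the same number lower in both. The granulocytic median of the list was then -1.04, against -1.37. Mcm3, a subunit of the replicative helicase, was at 5.002, 4.83 and 4.87 in late erythroblasts, against 6.58, 6.59 and 6.63 in MEP. In granulocytes it was at 5.02, 5.13 and 5.06, against 6.71 and 6.86 in GMP. The decreases were 3.25-fold and 3.29-fold (adjusted p = 1.33e-09 and 2.74e-08). Pold2, a subunit of DNA polymerase delta, fell by 2.65 ± 0.18 and 2.73 ± 0.20, Gins2, of the helicase complex, by 1.91 ± 0.18 and 2.18 ± 0.20, and Cdk4, the kinase that opens the G1 phase, by 2.57 ± 0.13 and 2.62 ± 0.14. For none of these genes did the interaction test find that the paths differed (adjusted p between 0.376 and 0.933). The letters GCGGGAA occurred in 16 of 41 promoters of this list (39.0%), against 4.66% of all promoters and 8.13% of the included genes. The promoter of Mcm3 (chr1:20820263-20820562, minus strand) is shown with those letters in capitals.
Mcm3: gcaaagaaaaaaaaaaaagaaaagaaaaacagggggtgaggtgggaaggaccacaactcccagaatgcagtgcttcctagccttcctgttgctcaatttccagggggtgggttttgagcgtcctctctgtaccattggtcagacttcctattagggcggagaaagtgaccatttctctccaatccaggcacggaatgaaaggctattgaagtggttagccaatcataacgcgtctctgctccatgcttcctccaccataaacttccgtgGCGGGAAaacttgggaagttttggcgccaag
The exceptions in late erythroblasts included Orc1, the large subunit of the origin recognition complex (2.44 ± 0.22, against -1.88 ± 0.25 in granulocytes), and Tk1, the cytosolic thymidine kinase (1.96 ± 0.14, against -1.29 ± 0.16). With spike-in scaling both were lower in late erythroblasts as well.

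Of 39 genes for chromatin proteins and histone modifiers, 17 were lower in both mature cells, 2 higher in both and 5 higher in late erythroblasts and lower in granulocytes (7 lower in both with spike-in scaling). Hmgn1, a nucleosome-binding protein that opens chromatin, fell by 3.67 ± 0.12 and 2.61 ± 0.13. Macroh2a1, which encodes a histone variant, fell by 5.07 ± 0.24 and 2.31 ± 0.27. Cbx5, which encodes heterochromatin protein 1 alpha, differed in direction, at 1.44 ± 0.16 in late erythroblasts and -1.73 ± 0.18 in granulocytes. Its second detected probe was at only 0.13 in late erythroblasts and at -1.51 in granulocytes.

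**Figure D3:**
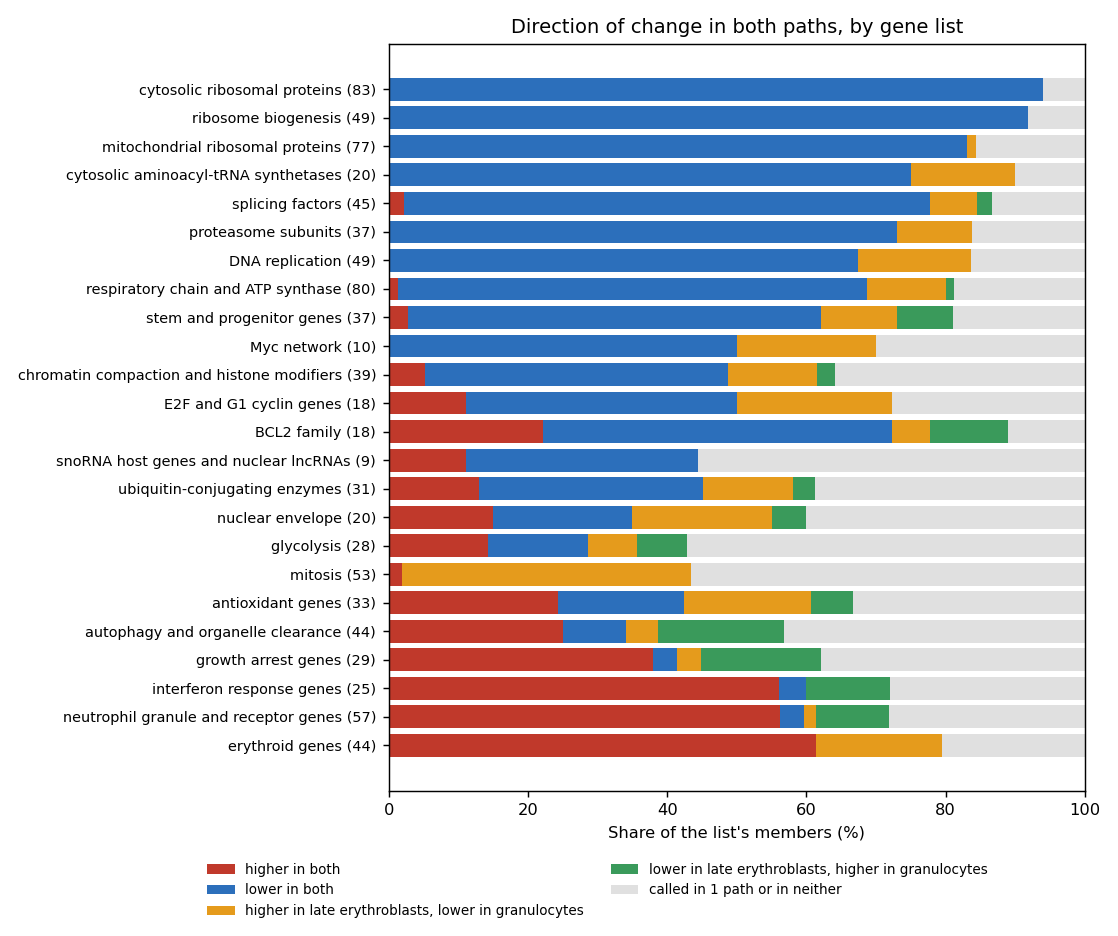
Each bar is 1 gene list, with the number of its included members in brackets, and colours give the share of members (x axis, percent) in each direction class. Cytosolic ribosomal proteins (78 of 83) and ribosome biogenesis (45 of 49) were nearly all lower in both, while mitosis genes held 22 of 53 that were higher in late erythroblasts and lower in granulocytes, a count that was 0 with spike-in scaling.

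Of 29 growth arrest genes, whose products stop the cell cycle or growth, 11 were higher in both mature cells, 1 was lower in both, 1 was higher in late erythroblasts and lower in granulocytes and 5 the reverse; the medians were 1.22 and 1.25, against -0.42 and -0.29 over all features. With spike-in scaling the erythroid median was -3.21 and 1 gene was higher in both. Among the 23 detected in all 4 groups, 9 were higher in both. Mxd1, the Max partner that opposes Myc, stood at 7.64, 7.25 and 7.48 in late erythroblasts, against 1.02, 1.19 and 1.18 in MEP. It stood at 6.80, 6.93 and 6.99 in granulocytes, against 1.38 and 1.49 in GMP. These are 80.4-fold and 44.4-fold increases (adjusted p = 4.02e-14 and 9.40e-12). Early erythroblasts were already at 5.81, while CMP stood at 0.82.

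Gadd45a, a growth arrest gene induced by DNA damage, was at 6.67, 6.78 and 6.92 in late erythroblasts, against 2.15, 2.65 and 2.15 in MEP, and at 5.01 on each granulocyte array, against 0.92 and 0.98 in GMP. It rose by 4.47 ± 0.21 and 4.06 ± 0.23. Cdkn1b, which encodes the cyclin-dependent kinase inhibitor p27, was at 7.78, 7.76 and 7.69 in late erythroblasts, against 3.19, 3.34 and 3.48 in MEP, and at 4.64, 4.69 and 4.71 in granulocytes, against 2.71 and 2.60 in GMP. Its rise was larger in the erythroid path by 2.38 log2 units (interaction, adjusted p = 2.58e-08). Cdkn2d, another kinase inhibitor, rose by 3.64 ± 0.16 and 2.60 ± 0.18, and Btg2, an antiproliferative factor that recruits deadenylases, by 2.94 ± 0.18 and 4.75 ± 0.20. Under spike-in scaling the erythroid differences of Cdkn1b, Cdkn2d and Btg2 were below 0, while those of Mxd1 and Gadd45a were above 0 and only Mxd1's was called.

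**Figure D4:**
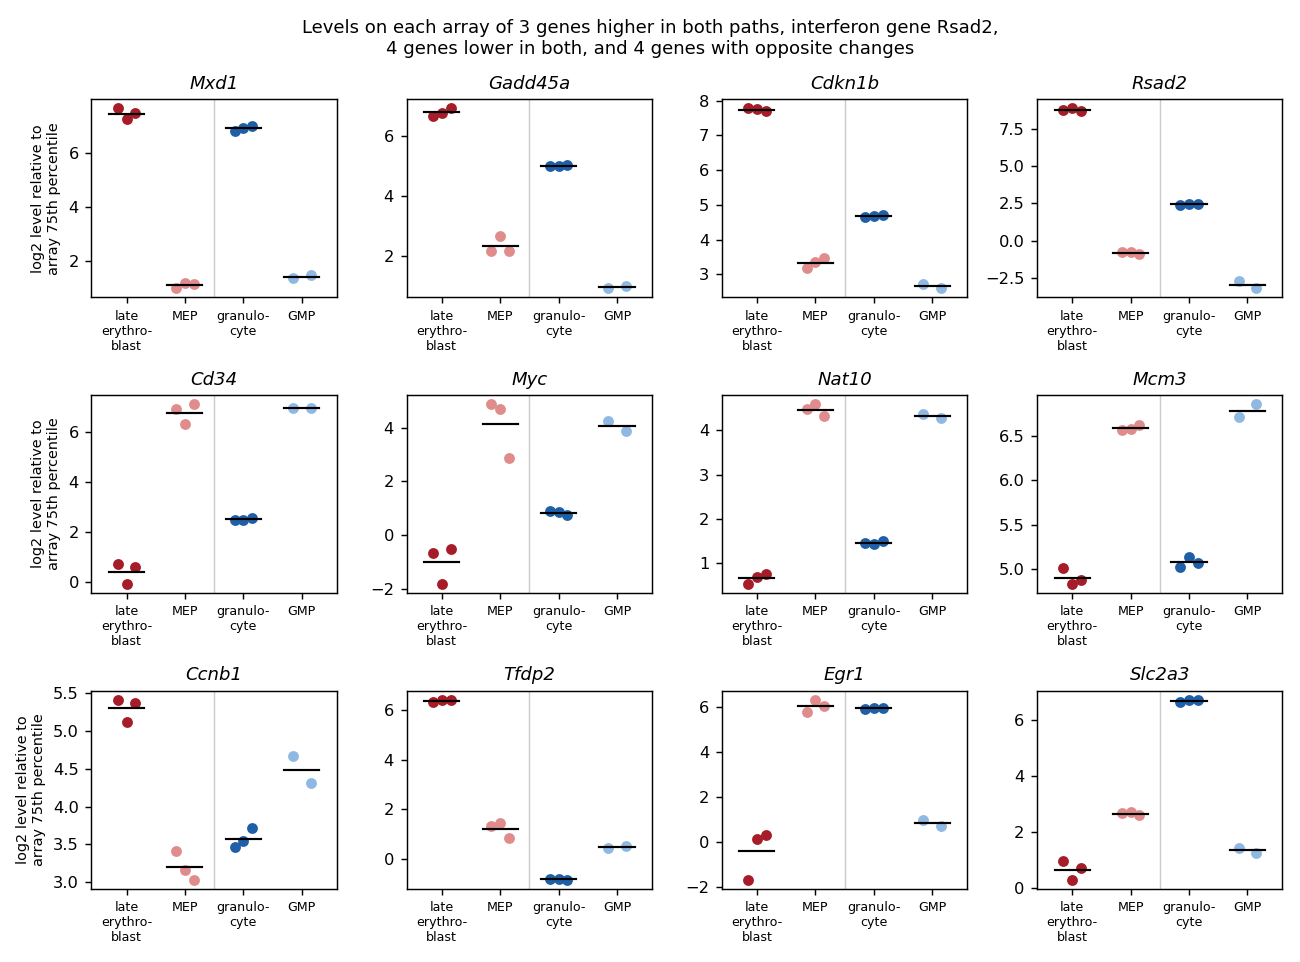
Points are arrays and bars their means, as log2 level minus the 75th percentile (y axis), for late erythroblasts, MEP, granulocytes and GMP (x axis). Mxd1 sat between 6.80 and 7.64 in both mature cells and between 1.02 and 1.49 in both progenitors, and Egr1 was low in late erythroblasts and GMP but near 6 in MEP and granulocytes.

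Of named genes detected in all 4 groups, 688 were at least 2-fold higher in both paths and 1823 at least 2-fold lower in both. Outside the lineage and marker lists, 209 of the 688 and 777 of the 1823 were at like levels. Like levels lay within 1 log2 unit of each other in the mature cells and also in the progenitors. This criterion was set, and Lgmn, Stk17b, Rhoc and C1qbp were named by it, after the values had been seen. Beside Mxd1, these genes included Lgmn, the lysosomal protease legumain, with 3.66 ± 0.22 in late erythroblasts and 3.67 ± 0.02 in granulocytes (SD, n = 3 each), against -0.03 ± 0.37 in MEP (n = 3) and -0.52 ± 0.05 in GMP (n = 2). Stk17b, an apoptosis-related kinase, rose by 3.55 ± 0.25 and 4.74 ± 0.28, and Rhoc, a small GTPase of the cytoskeleton, by 3.35 ± 0.12 and 2.86 ± 0.13. On the falling side, C1qbp, a mitochondrial matrix protein, stood at 2.73 ± 0.07 in late erythroblasts and 3.66 ± 0.07 in granulocytes, against 6.34 ± 0.19 in MEP and 6.60 ± 0.06 in GMP. The erythroid differences of Lgmn, Stk17b and Rhoc were below 0 with spike-in scaling.

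The largest shared gains outside the hemoglobin genes included Tent5c, a poly(A) polymerase, and St3gal5, the sialyltransferase that makes ganglioside GM3. St3gal5 stood at 9.59, 9.43 and 9.59 in late erythroblasts, against 3.61, 3.79 and 2.87 in MEP, and at 6.38, 6.52 and 6.46 in granulocytes, against 0.44 and 0.47 in GMP. Its change was 6.11 ± 0.21 and 6.00 ± 0.24, and the interaction test did not separate the paths (adjusted p = 0.759). Tent5c rose by 9.97 ± 0.31 and 6.27 ± 0.34. St3gal6, a related sialyltransferase, rose by 5.46 ± 0.17 in late erythroblasts and was well above background on no GMP array, which makes it at least 71.0-fold higher in granulocytes (adjusted p = 1.57e-11).

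Of 25 interferon response genes, 14 were higher in both, 1 was lower in both and 3 were lower in late erythroblasts and higher in granulocytes, with medians of 1.69 and 2.28. Among the 21 detected in all 4 groups, 12 were higher in both. With spike-in scaling the erythroid median was -2.74 and 3 genes were higher in both. Rsad2, which encodes the antiviral enzyme viperin, stood at 8.77, 8.86 and 8.67 in late erythroblasts, against -0.77, -0.78 and -0.89 in MEP. It stood at 2.36, 2.47 and 2.47 in granulocytes, against -2.71 and -3.16 in GMP. Oas3, which makes the second messenger that activates RNase L, rose by 4.56 ± 0.22 and 5.25 ± 0.25, and Irf7, a transcription factor of the interferon pathway, by 3.68 ± 0.19 and 4.02 ± 0.22. Ddx58, which encodes the RNA sensor RIG-I, moved in opposite ways, at -1.78 ± 0.18 in late erythroblasts and 2.97 ± 0.20 in granulocytes. The interferon response element core occurred in 10 of 19 promoters of the list (52.6%), against 3.49% of all promoters and 3.25% of the included genes. The promoters of Rsad2 (chr12:26456403-26456702, minus strand) and Oas3 (chr5:120777610-120777909, minus strand) are shown with those letters, on either strand, in capitals.
Rsad2: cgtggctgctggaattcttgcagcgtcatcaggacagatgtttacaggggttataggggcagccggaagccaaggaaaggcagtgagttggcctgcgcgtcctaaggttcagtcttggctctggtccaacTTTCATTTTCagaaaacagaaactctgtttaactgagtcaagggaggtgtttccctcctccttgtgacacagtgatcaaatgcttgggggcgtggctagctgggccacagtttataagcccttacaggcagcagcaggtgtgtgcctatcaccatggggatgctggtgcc
Oas3: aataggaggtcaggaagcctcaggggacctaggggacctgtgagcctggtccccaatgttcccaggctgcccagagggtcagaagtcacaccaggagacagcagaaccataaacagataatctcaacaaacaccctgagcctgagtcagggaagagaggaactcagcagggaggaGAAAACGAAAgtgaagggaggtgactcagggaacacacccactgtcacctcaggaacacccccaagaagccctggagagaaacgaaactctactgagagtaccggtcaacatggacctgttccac
Rsad2 carries its match on the reverse strand and Oas3 on the forward strand.

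Of 44 genes of autophagy and organelle clearance, 11 were higher in both mature cells, 4 lower in both, 2 higher in late erythroblasts and lower in granulocytes and 8 the reverse (medians 0.69 and 0.32; -3.74 in the erythroid path with spike-in scaling). Optn, a receptor for damaged mitochondria, rose by 2.48 ± 0.25 and 3.48 ± 0.28, and Wipi1, a protein of early autophagosomes, by 2.20 ± 0.15 and 2.66 ± 0.17. Of 31 ubiquitin-conjugating enzymes, 4 were higher in both and 10 lower in both. These counts lay near the shares over the 12623 included named genes, of which 11.53% were higher in both and 34.51% lower in both. Ube2h, an enzyme of erythroid maturation, rose by 5.85 ± 0.22 and 2.14 ± 0.24. Of 33 antioxidant genes, 8 were higher in both, 6 lower in both, 6 higher in late erythroblasts and lower in granulocytes and 2 the reverse. Hmox1, the heme oxygenase that breaks down heme, rose by 3.07 ± 0.23 and 4.89 ± 0.25. Of 20 nuclear envelope genes, 3 were higher in both, 4 lower in both, 4 higher in late erythroblasts and lower in granulocytes and 1 the reverse. The share of this list higher in both was near that of the included named genes, and the share lower in both was below theirs. Lmna, which encodes A-type lamins, rose by 2.94 ± 0.45 and 3.72 ± 0.51, and Lbr, the lamin B receptor that shapes the granulocyte nucleus, by 3.02 ± 0.16 and 0.84 ± 0.18. Syne2, a nuclear membrane anchor, was at -1.02 ± 0.31 in late erythroblasts and 2.97 ± 0.35 in granulocytes, although its erythroid difference was 0.12 with normexp background correction. Of Optn, Wipi1, Ube2h, Hmox1, Lmna, Lbr and Syne2, Ube2h alone was above 0 in the erythroid path with spike-in scaling.

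The genes higher in both also held many that belong to 1 lineage. Of 44 erythroid genes, 41 were higher in late erythroblasts and 27 of these were higher in granulocytes than in GMP as well (20 of the 37 detected in all 4 groups). Hba-a1, an alpha globin gene with a near-identical copy that its probe may share, stood at 13.10, 13.03 and 13.002 in late erythroblasts, against 3.30, 3.32 and 3.05 in MEP, and at 8.37, 8.25 and 8.23 in granulocytes, against 2.40 and 1.65 in GMP. Alas2, the first enzyme of erythroid heme synthesis, differed by 12.99 ± 0.20 and 5.69 ± 0.22, and Slc4a1, the anion exchanger of the red cell membrane, by 12.78 ± 0.23 and 4.38 ± 0.25. Over the 44 genes the level was higher in late erythroblasts than in granulocytes for 43, with a median gap of 6.44 log2 units. In contrast, 8 erythroid genes were lower in granulocytes than in GMP. They included Icam4, an adhesion molecule of red cells (-1.57 ± 0.26), and Tfrc, the transferrin receptor gene.

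The reverse held for neutrophil genes. Of 57 granule and receptor genes, 46 were higher in granulocytes and 36 were higher in late erythroblasts than in MEP, with 32 higher in both (26 of the 47 detected in all 4 groups). Ltf, which encodes lactoferrin, stood at 6.57, 6.27 and 6.76 in late erythroblasts, against 1.83, 2.95 and 2.07 in MEP, and at 10.14, 10.16 and 10.28 in granulocytes, against 5.50 and 5.97 in GMP. Lcn2 (lipocalin) rose by 4.48 ± 0.37 and 4.66 ± 0.41, and Mmp8 (neutrophil collagenase) by 4.51 ± 0.30 and 6.82 ± 0.34. Over the 57 genes the level was higher in granulocytes than in late erythroblasts for 53, and the median of the late erythroblast level minus the granulocyte level was -4.58. With spike-in scaling none of the 57 was called higher in both, and the erythroid difference of Ltf was -0.18.

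Of 15 macrophage markers on the array, 10 were included, 8 of these were higher in both, and 5 of the 10 were not detected in all 4 groups. Among the 5 that were, 4 were higher in both. The 8 held C1qa, C1qb and C1qc, the chains of complement C1q, and Slc40a1, which encodes the iron exporter ferroportin and was named after its value was seen. C1qb stood at 1.78, 1.49 and 1.14 in late erythroblasts, against -2.59, -2.80 and -2.64 in MEP, and at 2.73, 2.67 and 2.65 in granulocytes, against -2.42 and -3.03 in GMP. Summed over 15 markers on the array, linear levels over the 75th percentile were 38.0 to 49.0 in late erythroblasts, against 15.6 to 22.9 in MEP, and 158 to 161 in granulocytes, against 94.7 to 98.9 in GMP. Of these 15 markers, 4 were well above background on no late erythroblast array and none was absent from all granulocyte arrays. Ms4a7, a gene of macrophages, was at least 77.0-fold higher in granulocytes than in GMP, where it was well above background on no array (adjusted p = 2.80e-09). Without the 162 members of the erythroid, neutrophil and marker lists, a count added after these values had been seen, 2819 features were higher in both and 6172 lower in both. The part of RNA from other cells in the shared gains was not tested.

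Of 53 mitosis genes, 48 were higher in late erythroblasts than in MEP and none was lower, while 26 were lower in granulocytes than in GMP and 1 was higher; 22 were higher in late erythroblasts and lower in granulocytes (medians 1.91 and -0.44). With spike-in scaling the erythroid median was -2.52 and none of the 53 had opposite calls. Ccnb1, the mitotic cyclin B1, stood at 5.41, 5.13 and 5.37 in late erythroblasts, against 3.42, 3.15 and 3.03 in MEP, and at 3.47, 3.55 and 3.71 in granulocytes, against 4.67 and 4.31 in GMP. Its level in early erythroblasts was 7.33, above that of late erythroblasts. Mybl2, a transcription factor of cycling cells, was at 1.81 ± 0.22 and -1.21 ± 0.25, and Mki67, the proliferation marker, rose by 4.14 ± 0.13 in late erythroblasts while its difference of 0.22 ± 0.15 in granulocytes was not called. Espl1, the protease separase that parts sister chromatids, was at 0.91 ± 0.20 and -1.30 ± 0.22, and Ect2, which directs the cleavage furrow, at 2.23 ± 0.15 and -0.89 ± 0.17. With normexp background correction the erythroid difference of Espl1 was 0.25 and was not called.

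The letters TTTGAA occurred in 34 of 45 promoters of the mitosis list (75.6%), against 18.1% of all promoters and 12.5% of the included genes. CCAAT occurred in as many (75.6%), against 37.9% of all promoters and 39.1% of the included genes. The promoters of Espl1 (chr15:102296043-102296342, plus strand) and Ect2 (chr3:27153829-27154128, minus strand) are shown as the members with opposite calls and the motif whose smaller change was the largest, with TTTGAA in capitals.
Espl1: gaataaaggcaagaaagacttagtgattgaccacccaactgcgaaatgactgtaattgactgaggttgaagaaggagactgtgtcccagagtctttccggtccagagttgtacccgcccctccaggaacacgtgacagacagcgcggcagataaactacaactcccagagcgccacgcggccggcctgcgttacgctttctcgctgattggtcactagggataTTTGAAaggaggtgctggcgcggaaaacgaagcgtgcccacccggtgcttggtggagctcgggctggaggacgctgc
Ect2: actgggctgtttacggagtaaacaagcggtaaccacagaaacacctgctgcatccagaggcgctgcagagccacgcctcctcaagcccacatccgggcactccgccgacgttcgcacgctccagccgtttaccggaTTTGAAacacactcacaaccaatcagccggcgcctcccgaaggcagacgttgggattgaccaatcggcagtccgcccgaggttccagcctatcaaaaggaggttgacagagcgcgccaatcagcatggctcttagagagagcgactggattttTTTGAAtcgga
Ect2 holds 2 matches and Espl1 holds 1. Over the classes, CCAAT occurred in 47.2% of genes higher in late erythroblasts and lower in granulocytes, 39.4% of genes lower in both, 38.6% of genes higher in both and 35.0% of genes lower in late erythroblasts and higher in granulocytes.

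Outside the mitosis and DNA replication lists, genes higher in late erythroblasts and lower in granulocytes included Tfdp2, the E2F partner of erythroid cells. It stood at 6.35, 6.42 and 6.41 in late erythroblasts, against 1.33, 1.45 and 0.86 in MEP, and at -0.81, -0.79 and -0.84 in granulocytes, against 0.46 and 0.54 in GMP. Glrx5, which builds the iron-sulfur clusters that heme synthesis needs, was at 3.67 ± 0.14 and -1.89 ± 0.15. Ifrd2, a translation repressor found on ribosomes of differentiating cells, was at 2.60 ± 0.21 and -2.74 ± 0.23, and Fgl1, a fibrinogen-like protein, at 3.54 ± 0.25 and -2.70 ± 0.28. With spike-in scaling Glrx5, Ifrd2 and Fgl1 were below 0 in late erythroblasts and Tfdp2 was at 0.75, which was not called.

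The opposite group, lower in late erythroblasts and higher in granulocytes, was headed by Egr1, an immediate-early transcription factor that cells switch on quickly after a stimulus. It stood at -1.66, 0.13 and 0.33 in late erythroblasts, against 5.78, 6.29 and 6.01 in MEP, and at 5.88, 5.96 and 5.94 in granulocytes, against 0.99 and 0.70 in GMP. The granulocyte level thus lay near that of MEP, and LSK (6.64) and CMP (5.15) were high as well. The differences were -6.43 ± 0.67 and 5.08 ± 0.75 (adjusted p = 3.74e-07 and 3.47e-05). Nr4a1, an orphan nuclear receptor, was at -4.09 ± 0.54 and 5.97 ± 0.60, Socs3, which brakes cytokine signals, at -4.21 ± 0.39 and 5.16 ± 0.44, and the chemokine gene Ccl4 at -5.01 ± 0.52 and 4.75 ± 0.58. Zfp36, which destabilises cytokine mRNA, was well above background on no late erythroblast array and hence at least 24.7-fold lower there than in MEP (adjusted p = 1.91e-08), and it rose by 3.36 ± 0.49 in granulocytes. The time from tissue to lysis is not stated in the labels, and its part in these levels was not tested.

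Of 18 BCL2 family genes, 9 were lower in both mature cells, 4 higher in both, 1 higher in late erythroblasts and lower in granulocytes and 2 the reverse. Bcl2l1, the erythroid survival factor Bcl-xL, rose by 7.19 ± 0.11 in late erythroblasts and 1.44 ± 0.12 in granulocytes, a difference of 5.75 log2 units between paths (adjusted p = 3.96e-12). Mcl1, the survival factor of granulocytes, was at -0.57 ± 0.14 and 1.94 ± 0.16, and its erythroid difference was not called relative to the median feature (-0.15). Pmaip1, the BH3-only gene Noxa, was at -2.61 ± 0.64 and 3.31 ± 0.71. Of 28 glycolysis genes, 4 were higher in both, 4 lower in both, 2 higher in late erythroblasts and lower in granulocytes and 2 the reverse. The counts higher in both and in opposite ways lay near the shares over the included named genes (11.53%, 6.29% and 9.35%). The count of glycolysis genes lower in both lay below the share over the included named genes (34.51%). Slc2a3, a glucose transporter, stood at 0.96, 0.30 and 0.73 in late erythroblasts, against 2.69, 2.70 and 2.60 in MEP, and at 6.66, 6.71 and 6.72 in granulocytes, against 1.45 and 1.27 in GMP.

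Also lower in late erythroblasts and higher in granulocytes were H2-Aa and Clec4d. H2-Aa, a class II chain of dendritic cells and B cells, was at -3.40 ± 0.58 in late erythroblasts and 5.22 ± 0.65 in granulocytes, and Clec4d, a C-type lectin of myeloid cells, at -3.85 ± 0.21 and 5.24 ± 0.23. Among 10 monocyte and dendritic cell markers, 4 were lower in both and 4 were lower in late erythroblasts and higher in granulocytes. Siglech, named after its value was seen, alone was higher in late erythroblasts (2.41 ± 0.13). The summed levels of the 10 were 1232.5 to 1411 in late erythroblasts, against 335 to 391 in MEP. As the other 9 were called lower, the larger sum came from Siglech and does not describe the list. In granulocytes the sums were 457 to 474, against 525 to 593 in GMP. Of 12 megakaryocyte and platelet markers, 6 were lower in late erythroblasts and higher in granulocytes and 2 were higher in both, and among the 7 detected in all 4 groups these counts were 2 and 2. Summed over 14 such markers, levels were 23.0 to 29.1 in late erythroblasts, against 106 to 124 in MEP, and 35.0 to 38.5 in granulocytes, against 8.15 to 10.9 in GMP. Markers of T and NK cells were called higher in granulocytes than in GMP for 9 of 10 (5 of the 6 detected in all 4 groups) and lower for 1. Their summed level over the 12 on the array was lower, however, at 96.5 to 102 in granulocytes, against 133 to 195 in GMP. Of 7 B cell markers, 4 were called higher in granulocytes (2 of the 4 detected in all 4 groups). Their sums were 55.7 to 57.3 in granulocytes, against 17.7 to 20.0 in GMP. Markers of eosinophils, basophils and mast cells summed to 867 to 1049 in granulocytes, against 213 to 267 in GMP. Of the 12 included, however, 6 were called higher in granulocytes and 3 lower (5 and 2 of the 9 detected in all 4 groups). Whether the gains in granulocytes came from other cells in the Gr1+ gate was not tested.

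A shared direction did not mean a shared size. Of the 6733 features detected in all 4 groups and called the same way in both paths, the interaction test found a difference in size for 4376, larger in late erythroblasts for 3731 and larger in granulocytes for 645. Over all 15083 features tested, 11364 (75.3%) had a called interaction. These include features with opposite calls, which differ by selection, so the share of 4376 in 6733 cannot be read against that background. Over the 15083 features the differences had an SD of 2.33 in the erythroid and 1.35 in the granulocytic path, so erythroid changes were larger in general. Among the shared losses the erythroid minus the granulocytic difference was -3.40 for Kit, -2.50 for Myb and -1.91 for Myc, while Serpinf1 (-0.02), Mcm3 (0.02) and Cdk4 (0.05) had interactions near 0 that were not called. A p above the threshold does not show that the paths were alike.

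Of 8 lineage transcription factors, 2 were higher in both mature cells, 1 was lower in both, 3 were called in 1 path alone and 2 in neither. Cebpe, a factor of late granulocyte maturation, was higher in both mature cells (3.05 ± 0.37 and 1.75 ± 0.42), at 4.34, 4.20 and 4.13 in late erythroblasts, against 0.76, 1.76 and 0.996 in MEP, and at 8.15, 8.18 and 8.22 in granulocytes, against 6.44 and 6.43 in GMP. Cebpa, which starts the granulocytic programme, was lower in both (-2.70 ± 0.53 and -2.12 ± 0.59). Its granulocytic call was lost when slide was a block, a fit that rests on granulocyte array 1 for this difference. Gata2, a factor of stem cells and early progenitors, fell by 7.00 ± 0.20 in late erythroblasts and was not called in granulocytes (-0.31 ± 0.22). Gata1, the main erythroid factor, rose by 1.05 ± 0.20 in late erythroblasts and was not called in granulocytes (0.44 ± 0.23), though it was called higher there relative to the median feature (0.73). Gfi1, a repressor of early granulocyte stages, fell by 1.52 ± 0.27 in granulocytes and was not called in late erythroblasts (-0.19 ± 0.24). Klf1, an erythroid factor, was higher in both (1.81 ± 0.28 and 0.81 ± 0.31), but its granulocytic call was lost with normexp and quantile normalization. That call was also lost without GMP replicate 2 (0.35) or any 1 granulocyte array, and with slide as a block, which rests on granulocyte array 1. The erythroid difference of Klf1 was -2.62 with spike-in scaling. Spi1, a myeloid factor, was called in neither path (-0.72 ± 0.65 and 0.89 ± 0.72), though without late erythroblast replicate 2 both calls passed (-1.80 and 0.89). Gfi1b, a repressor of erythroid cells, was called in neither (0.21 ± 0.24 and 0.14 ± 0.27), and its erythroid difference was called at -0.62 with normexp and at 0.63 relative to the median feature. With normexp background correction Gata1 was not called in late erythroblasts (0.18) and Gfi1 was called lower there (-0.76).

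Custom probes for long noncoding transcripts and related categories contributed 765 features. Of these, 164 were lower in both (21.4%), 127 higher in both (16.6%), 51 higher in late erythroblasts and lower in granulocytes and 25 the reverse, against 29.6%, 13.9%, 6.46% and 7.1% over all features. TCONS_00375085 stood at 2.95, 2.40 and 3.13 in late erythroblasts, against -2.97, -0.56 and -0.44 in MEP, and at 9.30, 9.20 and 9.27 in granulocytes, against -0.92 and -2.69 in GMP. Its 3 probes rose by 4.15 to 4.61 in the erythroid and by 11.06 to 11.26 in the granulocytic path. TCONS_00412209 was lower in both (-4.38 ± 0.26 and -3.75 ± 0.29), TCONS_00182010 higher in late erythroblasts and lower in granulocytes (3.51 ± 0.15 and -2.64 ± 0.17), and TCONS_00393931 the reverse (-2.22 ± 0.27 and 1.84 ± 0.30). With spike-in scaling the erythroid differences of TCONS_00375085 and TCONS_00182010 were below 0. Of 2511 intergenic features, 603 were higher in both (24.0%) and 234 lower in both (9.32%).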

How the data were processed

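RNA of sorted bone marrow cells was hybridised to 19 single-colour Agilent arrays with catalogue and custom probes. The deposited files hold the processed signal intensity of each spot in 1 channel, background-corrected by Agilent Feature Extraction 11.5.1.1, per the file headers; the labels name the dye Cy5, while the files call the channel green. The intensity was taken as log2 minus the 75th percentile of the array, with control spots left out, spots of a probe averaged and the probe with the highest mean over all arrays reported for a feature. limma 3.58.1 (R 4.3.3) was fitted over all 7 populations and 19 arrays, with Benjamini-Hochberg adjustment over all features tested in each path, and was tested on simulated data. The members and lists were chosen with earlier results of these data known. Genes were named by rank of the smaller of both differences in each class and list, plus a preset set. The largest interactions among genes called the same way could also be named, as Slc4a1 was. Other exceptions are stated. The at-least folds set the mean of the brighter group against that of the dimmer one with each array raised, where lower, to its lowest signal well above background. Alternatives covered background correction (on the median signal, since the mean signal column was not used here), scaling, detection filter, probe choice, slide, replicate block, the authors' deposited series values and leaving out each array. Columns of other series numbered 0. Promoters came from RefSeq.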

Additional observations from a re-analysis of the deposited data

Results flagged for a closer look

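The erythroid difference (late erythroblast minus MEP) and the granulocytic difference (granulocyte minus GMP) were compared by an interaction term in limma. It was called for 11364 of 15083 features, and for 68 of the 89 genes named here that were tested. The 68 cannot be read against the share over all features. Genes with opposite calls differ by selection, and Slc4a1 was named for its large interaction. The values below are the erythroid minus the granulocytic difference in log2 units, with adjusted p below 0.05 for each. Among genes higher in both mature cells it was Mxd1 (0.86), Btg2 (-1.81), Cdkn2d (1.05), Cdkn1b (2.38), Bcl2l1 (5.75), Lbr (2.18), Optn (-1.003), Ube2h (3.71), Hmox1 (-1.82), Stk17b (-1.19), Rhoc (0.49), Tent5c (3.70), Rsad2 (4.21), Hba-a1 (3.56), Alas2 (7.30), Slc4a1 (8.40), Mmp8 (-2.31), Cebpe (1.30), C1qb (-1.26), TCONS_00375085 (-6.91), Slc40a1 (-0.90) and Klf1 (1.001). Among genes lower in both it was Cd34 (-1.90), Kit (-3.40), Myb (-2.50), Muc13 (-3.01), Hoxa7 (-0.45), Myc (-1.91), Ncl (-1.37), Nat10 (-0.94), Gpatch4 (-0.91), C1qbp (-0.67), Rpl12 (-0.65), Mrpl12 (-1.05), Psma7 (-0.52), Snrpd2 (-0.94), Eprs (-1.48), Hmgn1 (-1.06) and Macroh2a1 (-2.76). Among genes higher in late erythroblasts and lower in granulocytes it was Ccnb1 (3.02), Mybl2 (3.03), Espl1 (2.21), Ect2 (3.12), Orc1 (4.32), Tk1 (3.25), Tfdp2 (6.49), Aars (3.41), Srsf1 (2.52), Cbx5 (3.17), Ifrd2 (5.34), Fgl1 (6.25), Glrx5 (5.56), Icam4 (5.07) and TCONS_00182010 (6.15). Among genes lower in late erythroblasts and higher in granulocytes it was Egr1 (-11.51), Ccl4 (-9.76), Socs3 (-9.37), Nr4a1 (-10.07), Clec4d (-9.09), Mcl1 (-2.51), Syne2 (-3.98), Slc2a3 (-7.34), H2-Aa (-8.61), Ddx58 (-4.75) and TCONS_00393931 (-4.06). For genes called in 1 path alone it was Gfi1 (1.32), Mki67 (3.92) and Siglech (2.55). No group of the 4 held more than 3 arrays, so single arrays were not screened as outliers.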

How the results depend on the processing

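Spike-in scaling called 4943 features in the granulocytic path, against 13567, and 2208 the same way in both paths, against 9077, and it turned the sign of 37 of the 99 named genes in the erythroid path: Btg2 (-1.49), Cdkn2d (-0.79), Cdkn1b (-0.027), Lmna (-1.49), Lbr (-1.41), Wipi1 (-2.24), Optn (-1.95), Hmox1 (-1.36), Lgmn (-0.75), Stk17b (-0.88), Rhoc (-1.08), Irf7 (-0.76), Ltf (-0.18), Cebpe (-1.38), C1qa (-0.81), C1qb (-0.29), Ms4a7 (-0.45), TCONS_00375085 (-0.28), Ccnb1 (-2.33), Mybl2 (-2.62), Espl1 (-3.52), Ect2 (-2.20), Orc1 (-1.99), Tk1 (-2.47), Aars (-2.19), Srsf1 (-3.30), Cbx5 (-2.99), Ifrd2 (-1.83), Fgl1 (-0.89), Glrx5 (-0.77), Icam4 (-0.93), TCONS_00182010 (-0.92), Gata1 (-3.38), Mki67 (-0.29), Slc40a1 (-2.33), Siglech (-2.02) and Klf1 (-2.62). With normexp background correction on the median signal, an alternative chosen after seeing the data, the erythroid difference of Syne2 was 0.12. Without a filter on detection 31722 features were called in the erythroid path, over more features. At least 2-fold in both paths, 6045 moved the same way and 1450 in opposite ways. Calls higher made up 37.2% of the granulocytic calls, but 48.8% with the percentile over detected probes, 48.5% relative to the medians and 57.9% with spike-ins. Of the erythroid calls 43.5% were higher, but 1.57% with spike-ins and 66.7% without the filter. With slide as a block, granulocyte array 1 alone informed the granulocytic difference, so its calls are not counted here. The median feature was then at -0.43 in the erythroid and -0.27 in the granulocytic path. Leaving out 1 array gave 17477 to 18136 erythroid, 11551 to 14228 granulocytic, 7788 to 9227 same-way, 2330 to 2864 opposite and 10563 to 11492 interaction calls. Replicate numbers did not pair the samples (correlations of deviations -0.23 to -0.05), and the replicate block gave 17659 erythroid, 12707 granulocytic, 8488 same-way, 2652 opposite and 10656 interaction calls. The causes were not tested. The number of arrays and, on late erythroblast arrays, signal over background limit the precision.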
